A study of Mus musculus with 64 samples.

Results

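Colon tissue of C57BL/6 mice taken 3 d after a sham procedure was compared with colon tissue taken in the first hours after it. The 3 d group held 5 libraries. The first hours were the equal-weight mean of the 1 h group (4 libraries, replicates 1, 2, 4 and 5) and the 6 h group (5 libraries). Membership followed the group given in each sample's title and used no measured value, and these 14 libraries are 14 of the 64 in the series, whose other libraries include wound beds after pinch biopsy that take no part here. A further 5 sham libraries from 6 d served as a later time point. All groups share the strain, the tissue and the sham procedure, and their condition labels name no drug or allele. A treatment text attached to these samples speaks of antibiotics in an arm biopsied and sampled at 6 h, and it does not say whether it applies to the sham groups described here. Poly(A) RNA was sequenced after RNeasy extraction and library preparation with the TotalScript kit. The labels do not say what the sham procedure consisted of, nor the age and sex of the mice or the hour of day at collection. Nor do they tie each library to its own mouse, and every p-value below therefore measures only the spread between these libraries, which may be technical.

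The colon surface is a single layer of absorptive colonocytes, mucus-secreting goblet cells and hormone-secreting enteroendocrine cells, renewed from stem cells in the crypts. Absorptive colonocytes take up sodium, chloride and water, and aldosterone raises their sodium channels and proton pumps. Colon cells also carry the circadian clock, in which Clock (or Npas2) with Arntl drives the Per and Cry genes, whose proteins then hold Clock and Arntl back, while Nr1d1 and Nr1d2 repress Arntl.

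Levels are in FPKM, fragment counts scaled by transcript length and by the size of the library. Every difference is on the log2(FPKM + 1) scale, where genes of low level appear to change less than they do. Of 23997 gene symbols, 12462 were tested, and a gene is said to have risen or fallen where limma's adjusted p was under 0.05 over all of them. FPKM totals per library were 414318 to 485016 at 3 d, 468597 to 498137 at 1 h and 442360 to 463283 at 6 h, and genes at 1 FPKM or more numbered 11351 to 12283 at 3 d and 11923 to 12300 in the first hours. The lowest values of genes held by single fragments gave depths relative to the shallowest sham library of 1.22 to 1.66 at 3 d, 1.14 to 1.56 at 1 h and 1.36 to 1.79 at 6 h, which overlap. Small RNA symbols took 7.61% to 20.6% of the FPKM total at 3 d, 7.36% to 8.71% at 1 h and 7.99% to 12.7% at 6 h, and their part in the results was not tested beyond the rescaling given below. Colon markers were present throughout: the mucin Muc2 averaged 381 ± 52.2 FPKM at 3 d, 385 ± 51.6 at 1 h and 389 ± 29.3 at 6 h (SD, n = 5, 4 and 5), and the colonocyte carbonic anhydrase Car1 averaged 2130.0 ± 939.8 FPKM at 3 d, 2031 ± 388 at 1 h and 1753 ± 230.1 at 6 h. Neutrophil markers summed to at most 1.24 FPKM at 3 d and 3.53 FPKM in the first hours.

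A pair of libraries stood apart from their groups before any comparison. The 3 d sham 1 library had a summed endothelial marker level of 21.8 FPKM, against 63.4 to 78.0 in the other 3 d libraries. Its fibroblast markers summed to 254 FPKM against 420 to 531, its enteric neuron markers to 16.1 FPKM against 44.0 to 70.5, and it had the fewest genes at 1 FPKM or more. The 1 h sham 1 library had B cell and follicle markers summing to 175.8 FPKM, against at most 36.4 FPKM in any other of the 14. In the 3 d sham 1 library collagen and matrix genes summed to 397.8 FPKM, against 791.7 to 996.9 in the other 3 d libraries, and cell cycle genes to 157.3 FPKM, against 213.5 to 288.3. Where leaving out 1 library moved the count of a gene list by over 1.5 times, the range over the 14 such fits is given, for some lists with the count without 3 d sham 1. Fewer cells of a type cannot be told apart from less RNA per cell in any of these bulk samples.

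Against the first hours, 5053 of 12462 genes (40.5%) had changed at 3 d: 1760 rose (14.1%) and 3293 fell (26.4%). The changes were mostly small. The median change was 0.30 among genes that rose and −0.30 among those that fell, 26 genes rose and 15 fell by at least 1 on the log2 scale, and the median over all tested genes was −0.07. All 5 libraries of 3 d lay above all 9 of the first hours for 470 genes (3.77%) and below all 9 for 1024 genes (8.22%). The 3 d libraries stood further from 1 h than from 6 h: 5758 genes differed from 1 h (46.2%, 2319 higher or 18.6% and 3439 lower or 27.6%) and 2201 differed from 6 h (17.7%, 561 higher or 4.5% and 1640 lower or 13.2%). These contrasts share the 3 d libraries. Without 3 d sham 3 the count against 6 h was 1466. The 6 h and 1 h groups differed from each other in 2644 genes (21.2%), and in 1430 without 1 h sham 1.

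Transcript length and base composition moved with the direction of change. Genes that rose had a median transcript length of 3492 bases and a median GC content of 47.1%, genes that fell had 1342 bases and 54.4%, and genes that did not pass the test had 2232 bases and 50.7%. In the lowest of 10 deciles of transcript length 5.04% rose and 44.1% fell, whereas in the highest 41.1% rose and 3.11% fell. Within single libraries, the log2 level of genes in the top quartile of length minus that in the bottom quartile was 0.113 to 0.221 at 3 d, −0.375 to −0.129 at 1 h and −0.0556 to 0.0206 at 6 h, each relative to the mean over the 14 libraries. The groups thus did not overlap in this measure, and its part in the results was not tested. When each library was centred within bins of length and GC content, 3048 genes had changed (1606 higher, 1442 lower). Rescaling the FPKM without small RNA symbols moved the median of all genes to 0.04 and gave 3062 genes higher and 1315 lower, and median of ratios scaling gave 2251 higher and 2386 lower and quantile normalization 2452 higher and 2340 lower. The split between rises and falls thus depends on the scaling, and where centring ended the call of a gene named below, its adjusted p after centring is given.

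**Figure D1:**
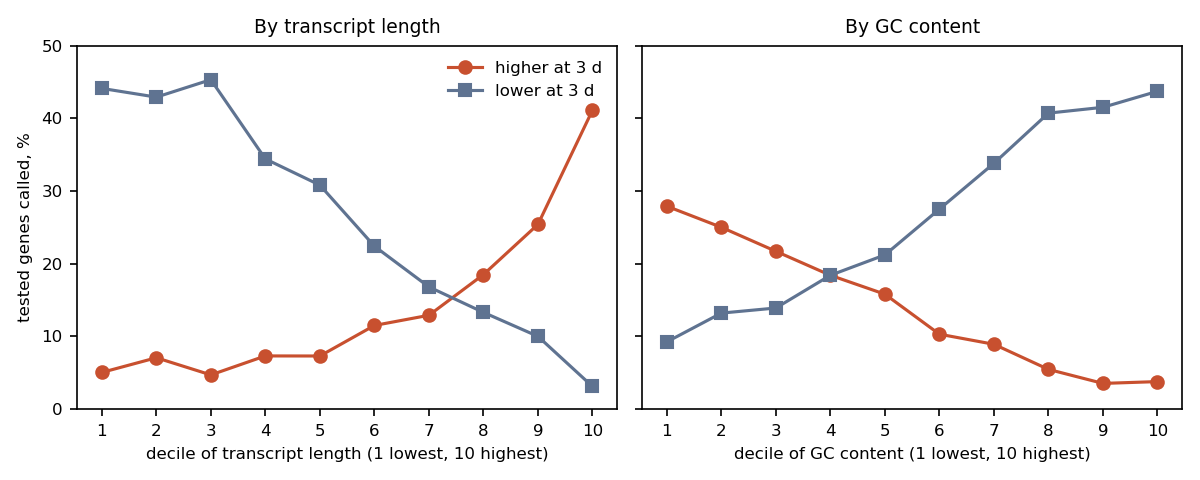
Share of tested genes that rose (circles) or fell (squares) at 3 d against the first hours, in percent on the vertical axis, by decile of transcript length (left) and of GC content (right) on the horizontal axis. In the highest length decile 41.1% rose and in the lowest 44.1% fell.

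Among named genes without overlap with the first hours, the largest rise was that of Tppp, a tubulin polymerization-promoting protein (chr13:74009407-74035753, + strand, GRCm38). It stood at 31.2, 35.2, 47.1, 23.1 and 22.1 FPKM in the 5 libraries of 3 d, 3.13, 4.51, 7.32 and 7.38 FPKM in the 4 of 1 h and 8.18, 5.74, 5.1, 4.95 and 8.52 FPKM in the 5 of 6 h. Every 3 d library lay above every library of the first hours. The log2 difference was 2.21 ± 0.21 (SE, limma adjusted p = 3.2e-05), and it was of similar size against 1 h (2.32 ± 0.25) and 6 h (2.10 ± 0.24). At 6 d Tppp averaged 12.3 ± 2.105 FPKM (SD, n = 5), below the 3 d mean by 1.26 ± 0.22 (adjusted p = 0.0011).

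The other genes among the 15 largest rises with no overlap were smaller changes in genes of varied roles. Kif13b, a kinesin motor, averaged 15.7 ± 6.52 FPKM at 3 d, against 4.19 ± 1.18 at 1 h and 7.26 ± 1.36 at 6 h, a difference of 1.30 ± 0.19 (adjusted p = 0.0002). Abhd2, a lipid hydrolase, stood at 74.8, 35.1, 41.8, 45.1 and 36.4 FPKM at 3 d, 11.2, 20.3, 11.7 and 17.6 at 1 h and 31.4, 25.4, 25.1, 18.99 and 31.4 at 6 h, with the 3 d libraries highest, and rose by 1.15 ± 0.19. Enzymes of glycan and lipid synthesis were among them: Mgat5, which branches N-glycans, by 1.17 ± 0.20, C1galt1, which builds the core of mucin-type O-glycans, by 0.96 ± 0.13, and the ceramide synthase Cers6 by 0.98 ± 0.13. The bile acid transporter family member Slc10a5 rose by 1.26 ± 0.16 and the calcium-permeable channel Trpv3 by 1.02 ± 0.20. The kinase Dyrk2 rose by 1.03 ± 0.10, the ubiquitin protease family member Usp53 by 1.02 ± 0.15, the transcriptional cofactor Tbl1x by 1.00 ± 0.12, Arhgap5 by 0.94 ± 0.12 and Fam83b by 0.93 ± 0.13. Duox2, which makes hydrogen peroxide at the epithelial surface, averaged 11.8 ± 5.38 FPKM at 3 d, 5.03 ± 1.71 at 1 h and 5.802 ± 1.14 at 6 h, and was higher again at 6 d (23.4 ± 2.04 FPKM, 3 d minus 6 d −1.03 ± 0.22, adjusted p = 0.0059). All of these calls against the first hours held in each of the 14 fits that left out 1 library and after centring on length and GC content. Against 6 h alone, Slc10a5, Abhd2, Trpv3 and Duox2 lost the call in 1, 3, 8 and 6 of the 14 fits.

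Among named genes without overlap, the largest fall was that of Trpv6, the apical calcium channel of epithelia that take up calcium (chr6:41620624-41636405, − strand). It stood at 7.72, 6.58, 6.89, 4.89 and 7.64 FPKM at 3 d, 37.8, 69.4, 27.5 and 23.5 FPKM at 1 h and 7.95, 10.8, 9.49, 13.8 and 9.76 FPKM at 6 h. The 3 d values lay below all 9 of the first hours, but the 6 h libraries lay close to them and the 1 h libraries far above both. The difference was −1.41 ± 0.20 against the first hours (adjusted p = 0.0002), −2.28 ± 0.25 against 1 h (adjusted p = 2.5e-05) and −0.55 ± 0.23 against 6 h, which did not pass (adjusted p = 0.11, and 0.028 without 1 h sham 2).

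Among the same named genes without overlap, Crybb3, a crystallin, gave the second largest fall. It stood at 3.54, 3.15, 2.304, 2.37 and 3.48 FPKM at 3 d, against 6.49, 6.72, 6.91 and 11.01 FPKM at 1 h and 6.12, 9.003, 7.63, 7.86 and 7.64 FPKM at 6 h, with no overlap, and fell by 1.13 ± 0.12 (adjusted p = 5.6e-05), with −1.13 ± 0.15 against 1 h and −1.13 ± 0.14 against 6 h. The secreted phospholipase Pla2g2c changed by −1.01 ± 0.17 and the growth factor receptor Fgfr4 by −0.91 ± 0.19. Pparg, the nuclear receptor that colonocytes use to sense fatty acids, stood at 20.7, 17.8, 17.8, 17.8 and 18.97 FPKM at 3 d, 45.6, 52.7, 40.8 and 27.6 FPKM at 1 h and 34.7, 26.9, 29.4, 30.7 and 34.8 FPKM at 6 h. The 3 d libraries were again the lowest, and the difference was −0.90 ± 0.12 (adjusted p = 0.00011), with 19.9 ± 2.75 FPKM at 6 d (SD, n = 5). Further falls without overlap were those of the actin regulator Inf2 (−0.87 ± 0.13), the sulfotransferase Sult2b1 (−0.78 ± 0.09), the prostaglandin D synthase Hpgds (−0.72 ± 0.14) and the mitochondrial seryl-tRNA synthetase Sars2 (−0.73 ± 0.09). Among the same 15 were factors of ribosome assembly and RNA handling: Nle1 (−0.73 ± 0.13), Mrto4 (−0.67 ± 0.10), the splicing factor Sf3a2 (−0.70 ± 0.11), Mcrs1 (−0.70 ± 0.06) and Tarbp2, a partner of Dicer. Exons of Plekhj1 on the other strand cover 16.1% of the exonic bases of Sf3a2. Tarbp2 had the tightest values, 8.14, 9.04, 7.9, 8.29 and 8.03 FPKM at 3 d, 15.2, 14.2, 15.4 and 15.1 at 1 h and 12.1, 12.7, 11.6, 13.6 and 12.9 at 6 h, and the lowest adjusted p of the 30 (5.8e-06). The synaptic adhesion gene Lrfn4 (−0.69 ± 0.15) completed the list. Against the first hours these falls too held in all 14 leave-one-out fits and after centring. Against 6 h alone, Fgfr4 and Lrfn4 did not pass. Nle1, Mrto4 and Pla2g2c lost the call against 6 h in 10, 4 and 2 of the 14 fits.

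**Figure D2:**
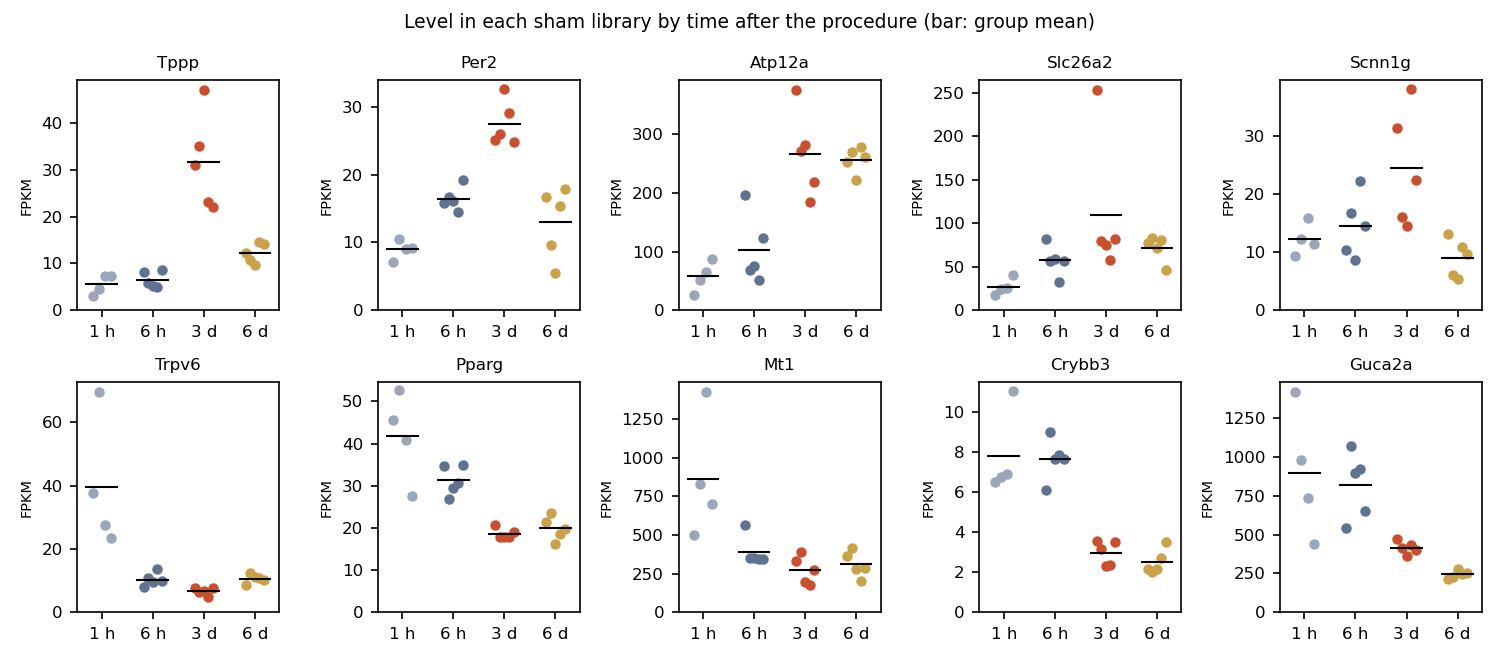
FPKM of 10 genes in each sham library at 1 h, 6 h, 3 d and 6 d (points, 4 libraries at 1 h and 5 at each other time), with the group mean as a bar. Tppp and Per2 are highest in the 3 d libraries, and Crybb3 and Pparg lie below both early groups at 3 d and stay low at 6 d.

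Most circadian clock genes rose. Of 14 tested core clock genes, 10 rose and 1 fell, against 14.1% and 26.4% of all tested genes, and their median difference was 0.39 against −0.07. In the separate contrasts 9 were higher and 1 lower than at 1 h, where 18.6% of all genes were higher and 27.6% lower. Against 6 h, 5 were higher and 1 lower, where 4.5% of all genes were higher and 13.2% lower. Against the first hours the counts were 10 and 1 with centring on length and GC content, and 8 and 1 without the 3 d sham 1 library. With the 9 libraries of the first hours taken as 1 group, calls lost among them included Per1, Per3, Nr1d2 and Npas2.

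Per2, the period gene whose protein represses its own activators (chr1:91415982-91459324, − strand), stood at 25.1, 25.9, 32.6, 29.1 and 24.8 FPKM at 3 d, 7.15, 10.5, 9.05 and 9.24 FPKM at 1 h and 15.8, 16.7, 16.2, 14.5 and 19.1 FPKM at 6 h. The 3 groups did not overlap, with 1 h lowest and 3 d highest. The rise was 1.11 ± 0.09 against the first hours (adjusted p = 1.3e-05), 1.51 ± 0.11 against 1 h and 0.70 ± 0.10 against 6 h (adjusted p = 0.0018). At 6 d the libraries ranged from 5.49 to 17.9 FPKM, and 3 d minus 6 d was 1.12 ± 0.21 (adjusted p = 0.0022).

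Per3 stood at 20.1, 20.4, 18.1, 25.2 and 23.5 FPKM at 3 d, 5.702, 6.83, 8.54 and 11.7 at 1 h and 17.5, 21.9, 21.1, 15.3 and 18.9 at 6 h. Its 3 d and 6 h libraries overlapped and every 1 h library lay lower. Its rise of 0.75 ± 0.13 (adjusted p = 0.00074) came with 1.32 ± 0.16 against 1 h and a difference that did not pass against 6 h (0.17 ± 0.15, adjusted p = 0.46). Cry2, a cryptochrome of the repressor complex, stood at 23.9, 17.2, 19.3, 23.3 and 18.8 FPKM at 3 d, 9.32, 9.95, 8.95 and 9.82 at 1 h and 17.04, 16.1, 13.1, 11.9 and 15.6 at 6 h, all 3 d libraries being highest, and rose by 0.74 ± 0.09 (adjusted p = 9.0e-05). Cry1 rose by 0.48 ± 0.12 (adjusted p = 0.0051) and was 0.93 ± 0.16 higher than at 6 d (adjusted p = 0.00071).

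Among the activators, Clock averaged 9.47 ± 0.395 FPKM at 3 d, 6.54 ± 0.737 at 1 h and 7.28 ± 0.247 at 6 h (SD) with no overlap and rose by 0.41 ± 0.05. Arntl, its partner, ranged from 3.003 to 8.07 FPKM at 3 d and 3.98 to 7.23 FPKM in the first hours, and its difference of 0.01 ± 0.16 did not pass (adjusted p = 0.98). Npas2 rose by 0.40 ± 0.14 (adjusted p = 0.028), a call lost without 1 h sham 4, 3 d sham 1, 3 d sham 2 or 3 d sham 3 (adjusted p up to 0.08).

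The paralogous repressors of Arntl went in opposite directions. Nr1d1 stood at 60.2, 78.1, 66.2, 47.7 and 63.5 FPKM at 3 d, 116, 85.4, 117 and 128 at 1 h and 72.8, 71.9, 96.5, 72.9 and 77.4 at 6 h. All 1 h libraries lay above all 3 d libraries, 3 d and 6 h overlapped, and the fall was 0.56 ± 0.12 (adjusted p = 0.0018). Nr1d2 averaged 33.4 ± 1.98 FPKM at 3 d, 20.7 ± 2.83 at 1 h and 31.9 ± 2.99 at 6 h and rose by 0.37 ± 0.07. Exons of Thra on the other strand cover 8.55% of the exonic bases of Nr1d1, and reads of the pair cannot be told apart there without strand. Per1 rose by 0.32 ± 0.12 (adjusted p = 0.045), a call kept without 1 h sham 2, 3 d sham 2 or 6 h sham 2 and lost in each of the other 11 leave-one-out fits (adjusted p up to 0.11). It averaged 24.9 ± 3.06 FPKM at 3 d, 13.2 ± 3.26 at 1 h and 29.8 ± 3.35 at 6 h. Csnk1e, a kinase that phosphorylates PER proteins, rose by 0.34 ± 0.11, with the call lost without 3 d sham 2, 4 or 5 (adjusted p up to 0.079), whereas Csnk1d (−0.02 ± 0.05) and Ciart (−0.02 ± 0.10) did not pass.

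**Figure D3:**
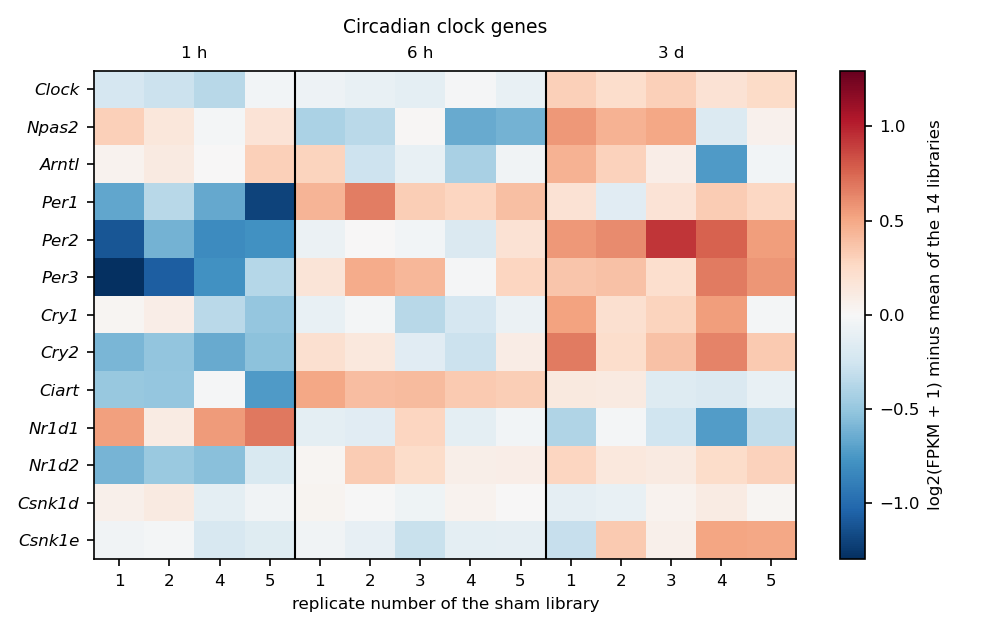
Core clock genes (down the page) in each of the 14 sham libraries (across, by replicate number within 1 h, 6 h and 3 d), coloured by log2(FPKM + 1) minus the mean of the 14 libraries. Per2, Cry2 and Clock are highest in the 3 d libraries, Per3 and Nr1d2 are low in the 1 h libraries alone, and Nr1d1 is high at 1 h.

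Of 11 tested clock output genes, 5 rose and 2 fell, against 14.1% and 26.4% of all tested genes, with a median of 0.21. In the separate contrasts 5 were higher and 2 lower than at 1 h, where 18.6% of all genes were higher and 27.6% lower. Against 6 h, 1 was higher and 1 lower, where 4.5% of all genes were higher and 13.2% lower. The median against 6 h was 0.02, and the differences of Wee1, Usp2, Tef and Nampt from 6 h did not pass. Wee1, a kinase that holds back entry into mitosis, averaged 11.3 ± 1.45 FPKM at 3 d, 5.52 ± 1.41 at 1 h, 8.93 ± 1.03 at 6 h and 6.12 ± 1.36 at 6 d, and rose by 0.62 ± 0.11 (adjusted p = 0.00068). Tsc22d3, which glucocorticoids also induce, rose by 0.49 ± 0.10, the ubiquitin protease Usp2 by 0.42 ± 0.12 and the transcription factor Tef by 0.24 ± 0.07. Nampt, of NAD synthesis, rose by 0.21 ± 0.07, with the call lost without 3 d sham 1 or 3 d sham 4 (adjusted p up to 0.064) and after centring (0.7). The cold-inducible RNA-binding protein Cirbp changed by −0.52 ± 0.15 and the cytochrome P450 reductase Por by −0.35 ± 0.09, and both calls were lost after centring (adjusted p = 0.13 and 0.55). Exons of Sphk2 cover 18% of the exonic bases of Dbp. Dbp, a PAR-domain factor that Clock and Arntl drive directly, stood at 76.2, 96.7, 82.05, 75.04 and 80.3 FPKM at 3 d, 52.01, 47.6, 85.8 and 83.8 at 1 h and 121, 112, 126, 116 and 119.6 at 6 h. The 6 h libraries were the highest. The difference of Dbp from the first hours did not pass (−0.11 ± 0.13, adjusted p = 0.53), and it was lower than at 6 h (−0.54 ± 0.14, adjusted p = 0.02).

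Promoter sequence is shown for Cry1 and Per3 because both rose and hold letters that clock factors are known to bind. The E-box is CACGTG, bound by Clock with Arntl, and the D-box searched is TTATGTAA, bound by Dbp and Tef. Both were searched on both strands in RefSeq promoters of GRCm38.p6, from 250 bases before to 50 after each start. Of the 14 tested core clock genes 11 had an entry, 3 of these (Per1, Cry1 and Ciart) held an E-box and 1 (Per3) a D-box, while 7.15% of all 32851 promoters held an E-box and 0.938% a D-box. The gene counts take a match at any start of the gene, and Per1 held its E-box at 1 of 2 starts. The shares are per promoter, so the gene counts and the shares are not in the same unit. Per2 and Csnk1d are named only. A match is a description of the letters and no site was measured here. Sequences run 5′ to 3′, and capitals mark the matches in the promoters of Cry1 (chr10:85185005-85185304, − strand) and Per3 (chr4:151044616-151044915, − strand, 2 matches, as many as in 0.0213% of promoters).
Cry1: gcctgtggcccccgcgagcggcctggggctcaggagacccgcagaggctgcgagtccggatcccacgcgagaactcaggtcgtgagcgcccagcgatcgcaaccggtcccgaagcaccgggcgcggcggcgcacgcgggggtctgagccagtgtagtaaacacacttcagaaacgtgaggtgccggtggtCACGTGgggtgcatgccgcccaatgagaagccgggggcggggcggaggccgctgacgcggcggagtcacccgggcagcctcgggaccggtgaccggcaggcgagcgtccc
Per3: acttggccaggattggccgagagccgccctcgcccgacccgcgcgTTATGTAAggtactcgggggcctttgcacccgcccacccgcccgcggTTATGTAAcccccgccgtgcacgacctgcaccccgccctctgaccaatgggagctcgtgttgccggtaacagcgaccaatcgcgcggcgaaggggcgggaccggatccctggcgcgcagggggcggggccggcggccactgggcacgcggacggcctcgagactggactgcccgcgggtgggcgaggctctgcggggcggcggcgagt

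Some ion transport genes of the colon surface rose, mostly as a difference from 1 h. Of 23 tested genes of ion and water transport, 7 rose and 2 fell, against 14.1% and 26.4% of all tested genes, with a median of 0.12. The same list had 8 higher and 2 lower than at 1 h, where 18.6% of all genes were higher, and 1 higher and 1 lower than at 6 h, where 4.5% were higher, with a median of 0.02 against 6 h. Of 12 tested aldosterone-responsive genes 6 rose and 1 fell, with a median of 0.31, and 7 were higher and 1 lower than at 1 h, against 2 higher and 1 lower than at 6 h. Atp12a and Tsc22d3 were also higher than at 6 h, the call of Tsc22d3 being lost without any of 3 d sham 1 or 3 and 6 h sham 1, 3, 4 or 5, while the differences of Slc26a2, Slc26a3, Car2, Scnn1g, Scnn1b, Sgk1 and Nr3c2 from 6 h did not pass. The lists share Atp12a and the 3 sodium channel subunits.

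Atp12a, the proton and potassium pump of the distal colon that aldosterone raises (chr14:56365068-56388550, + strand), stood at 375, 271, 282, 184 and 218 FPKM at 3 d, 26.7, 51.2, 65.7 and 87.8 FPKM at 1 h and 196, 68.5, 75.3, 52.1 and 123 FPKM at 6 h. Only the 6 h sham 1 library, at 196 FPKM, reached into the 3 d range. The rise was 1.87 ± 0.31 (adjusted p = 0.00046), 2.26 ± 0.37 against 1 h and 1.48 ± 0.35 against 6 h, and at 6 d the mean was 256 ± 21.6 FPKM (SD, n = 5, 3 d minus 6 d 0.02 ± 0.31, adjusted p = 0.98). An antisense RNA gene covers 13.9% of the exonic bases of Atp12a.

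Slc26a2, a sulfate and anion exchanger, stood at 253, 79.3, 75.3, 57.99 and 81.6 FPKM at 3 d, 16.9, 24.3, 26.1 and 40.5 at 1 h and 82.3, 56.97, 59.01, 32.2 and 56.8 at 6 h. The 3 d sham 1 library stood far above all others, and the remaining 3 d libraries overlapped the 6 h libraries. The rise was 1.29 ± 0.31 (adjusted p = 0.0047) and between 0.93 and 1.46 over the leave-one-out fits, each of which kept the call. Slc26a3, the chloride and bicarbonate exchanger of surface colonocytes, stood at 949.5, 543, 546, 498 and 539.9 FPKM at 3 d, 301, 363, 264 and 367 at 1 h and 492, 534, 424, 335 and 421 at 6 h, again with 3 d sham 1 highest, and rose by 0.67 ± 0.15 (adjusted p = 0.0032). Car2, the cytosolic carbonic anhydrase that supplies bicarbonate and protons to such exchangers, averaged 989 ± 216 FPKM at 3 d, 597 ± 121 at 1 h and 709 ± 109.7 at 6 h without overlap and rose by 0.60 ± 0.14. The monocarboxylate transporter Slc16a1, which carries butyrate, rose by 0.27 ± 0.08, and not after centring (adjusted p = 0.46).

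Of the epithelial sodium channel, the gamma subunit Scnn1g stood at 31.4, 16.03, 14.5, 37.9 and 22.4 FPKM at 3 d, 9.38, 12.2, 15.8 and 11.4 at 1 h and 10.4, 16.6, 8.61, 22.2 and 14.6 at 6 h. It rose by 0.79 ± 0.24 (adjusted p = 0.018, and 0.0544 without 3 d sham 4, its highest library), and it was 1.33 ± 0.28 higher than at 6 d (adjusted p = 0.0057). The beta subunit Scnn1b rose by 0.44 ± 0.15 (adjusted p = 0.031), a call lost without 1 h sham 1, 1 h sham 2, 3 d sham 1 or 3 d sham 4 (up to 0.093), and the alpha subunit Scnn1a did not pass (0.14 ± 0.12, adjusted p = 0.38). The mineralocorticoid receptor Nr3c2 rose by 0.57 ± 0.13, and Sgk1, the kinase through which aldosterone keeps sodium channels at the membrane, stood at 149, 141, 99.3, 73.97 and 117 FPKM at 3 d, 41.9, 71.5, 62.7 and 29.2 at 1 h and 129.7, 76.3, 76.2, 67.9 and 84.7 at 6 h and rose by 0.80 ± 0.22 (adjusted p = 0.01). Sgk1 was also 1.20 ± 0.24 higher than at 6 d (adjusted p = 0.0031). Hsd11b2, which inactivates glucocorticoids in aldosterone target cells, fell by 0.28 ± 0.08, and not after centring (−0.06, adjusted p = 0.58).

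The secreted ligands that stimulate chloride and fluid secretion fell against the first hours. Guca2a, guanylin, stood at 468, 415, 363, 435 and 402 FPKM at 3 d, 1417, 975, 733 and 441 FPKM at 1 h and 541, 1069, 896, 924 and 649 FPKM at 6 h. All 3 d libraries lay below 8 of the 9 libraries of the first hours and overlapped only with 1 h sham 5, and the fall was 0.95 ± 0.22 (adjusted p = 0.0042). Uroguanylin, Guca2b, fell by 0.50 ± 0.13 (adjusted p = 0.0065), and not after centring (adjusted p = 0.093). Guca2a was also lower than at 6 h, a call lost without 3 d sham 3 or 6 h sham 2, 3 or 4. The difference of Guca2b from 6 h did not pass. The water channel Aqp8 (−0.25 ± 0.17) and the carbonic anhydrases Car1 (0.08 ± 0.21) and Car4 (−0.06 ± 0.12) did not pass.

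**Figure D4:**
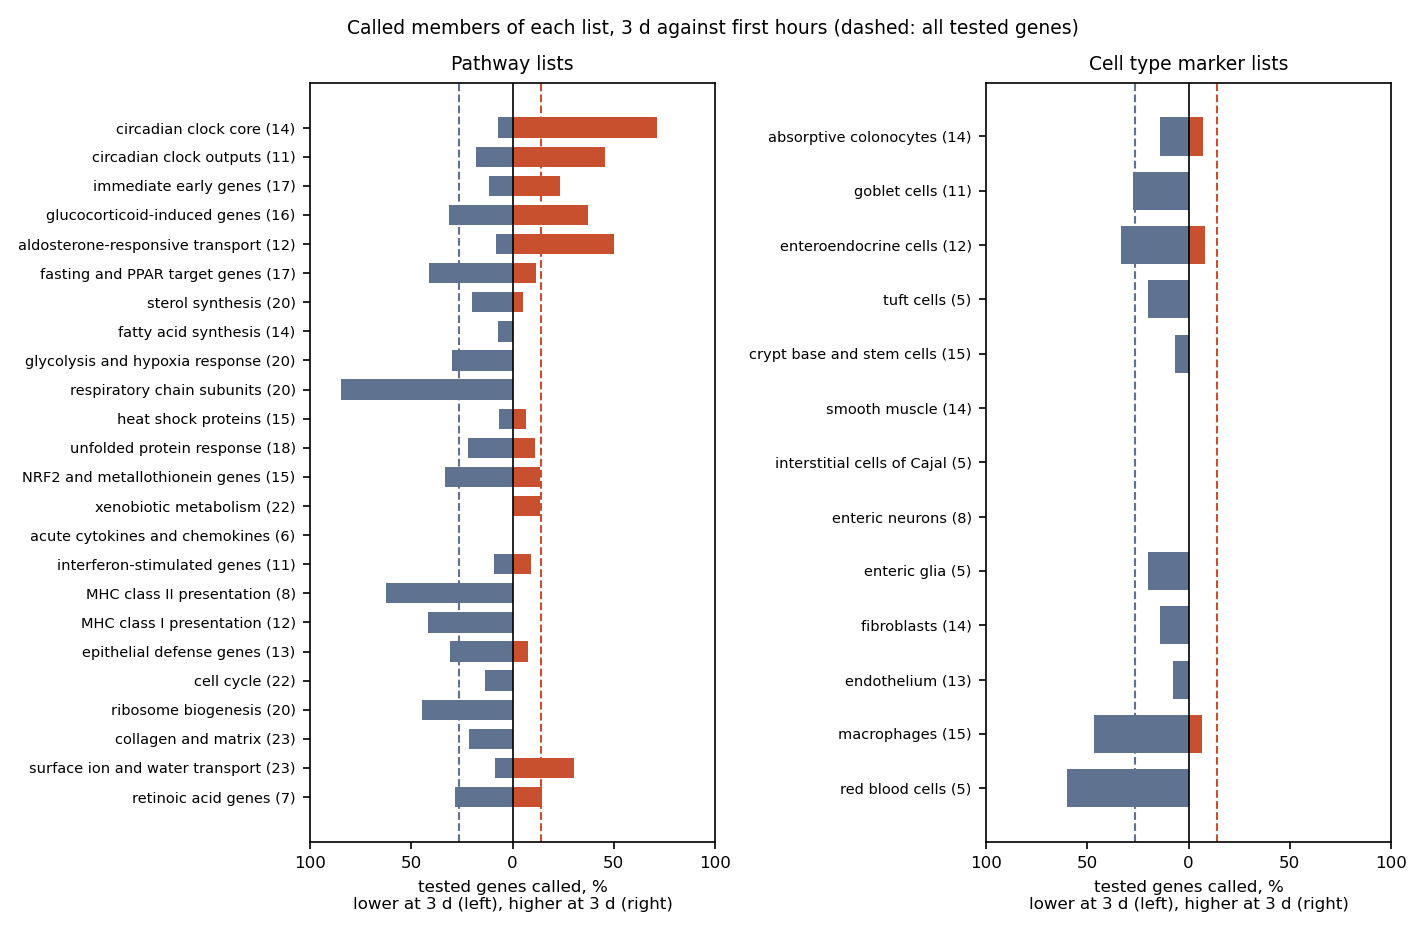
Percent of the tested members of each list that fell (left of 0) or rose (right of 0) at 3 d against the first hours, with the number tested in parentheses and dashed lines at the 14.1% and 26.4% of all tested genes. Of 14 clock core genes 10 rose, and of 20 respiratory chain subunits 17 fell.

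The metallothioneins, small proteins that bind zinc and copper, fell. Mt1 (chr8:94179082-94180327, + strand) stood at 329, 392, 197, 179 and 276 FPKM at 3 d, 500.1, 832, 1424 and 700.1 FPKM at 1 h and 565, 349.5, 352, 342 and 345 FPKM at 6 h. The 1 h libraries were all above the 3 d libraries, and the 6 h libraries overlapped the 3 d ones. Mt1 fell by 1.07 ± 0.24 against the first hours (adjusted p = 0.0028), with −1.61 ± 0.28 against 1 h (adjusted p = 0.00049) and −0.54 ± 0.27 against 6 h (adjusted p = 0.17). Mt2 (chr8:94172664-94173568, + strand) stood at 80.1, 114, 52.5, 34.7 and 94.7 FPKM at 3 d, 169, 298, 705 and 262 at 1 h and 194, 90.6, 90.5, 102 and 68.1 at 6 h, the same pattern, and fell by 1.35 ± 0.34 (adjusted p = 0.0065). An antisense gene covers 73.5% of the exonic bases of Mt2.

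The Mt1 and Mt2 promoters are shown because the neighbouring genes moved together and are known to be switched on by metals through a factor that binds metal response elements. The element core was searched as TGCACNC or TGCGCNC on both strands in the same 300-base windows. The Mt1 promoter (chr8:94178839-94179138, + strand) held 3 matches and the Mt2 promoter (chr8:94172368-94172667, + strand) 4. Capitals mark the matches of either strand, and the sequences run 5′ to 3′. At least 1 match was present in 25.7% of all promoters, at least 3 in 1.97% and at least 4 in 0.517%.
Mt1: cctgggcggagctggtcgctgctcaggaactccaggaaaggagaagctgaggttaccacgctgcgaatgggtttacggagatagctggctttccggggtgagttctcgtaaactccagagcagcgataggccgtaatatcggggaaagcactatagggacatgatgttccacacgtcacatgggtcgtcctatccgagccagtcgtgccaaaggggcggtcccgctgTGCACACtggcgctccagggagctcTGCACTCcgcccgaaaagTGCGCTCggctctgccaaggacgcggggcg
Mt2: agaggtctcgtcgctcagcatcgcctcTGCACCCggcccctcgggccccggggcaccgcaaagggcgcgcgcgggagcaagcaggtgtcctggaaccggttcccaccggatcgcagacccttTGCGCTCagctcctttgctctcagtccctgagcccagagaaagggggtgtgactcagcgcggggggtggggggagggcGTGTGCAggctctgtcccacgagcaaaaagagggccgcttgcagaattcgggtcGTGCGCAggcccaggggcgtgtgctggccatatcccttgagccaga

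Of 15 tested NRF2 target and metallothionein genes 2 rose and 5 fell, near the 14.1% and 26.4% of all tested genes. With 1 library left out 0 to 3 rose and 4 to 6 fell (1 and 5 without 3 d sham 1). The heme oxygenase Hmox1 changed by −0.60 ± 0.17 and the glutathione peroxidase Gpx2, a crypt enzyme, by −0.50 ± 0.12, and neither call remained after centring (adjusted p = 0.056 and 0.063). Of 16 tested glucocorticoid-induced genes 6 rose and 5 fell, against the same shares of all genes. With 1 library left out 4 to 6 rose and 3 to 5 fell (4 and 5 without 3 d sham 1, 4 and 3 without 1 h sham 4). The metallothioneins were among those that fell. Klf9 averaged 23.01 ± 2.28 FPKM at 3 d, 11.2 ± 2.97 at 1 h and 21.1 ± 1.39 at 6 h and rose by 0.55 ± 0.10. Its difference from 6 h did not pass. The zinc finger gene Zbtb16 rose by 0.65 ± 0.15, but its difference from 1 h did not pass, except in 5 of the 14 leave-one-out fits. Fkbp5, a standard glucocorticoid target, did not pass (0.05 ± 0.14, adjusted p = 0.82). Lcn2, an iron-sequestering defense protein, changed by −0.75 ± 0.19 (adjusted p = 0.0076, and 0.0501 after centring).

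Immediate early genes did not share a direction: of 17 tested, 4 rose and 2 fell, against 14.1% and 26.4% of all tested genes. Atf3, a stress-induced transcription factor, stood at 10.7, 16.1, 19.5, 32.3 and 11.2 FPKM at 3 d, 6.98, 6.47, 11.5 and 6.56 at 1 h and 7.89, 5.89, 5.96, 5.57 and 7.62 at 6 h, overlapping in the 3 d sham 1 and 3 d sham 5 libraries with 1 h, and rose by 1.12 ± 0.22 (adjusted p = 0.0012). At 6 d it averaged 28.7 ± 13.6 FPKM. Fosb was low throughout, at 0.675, 4.27, 1.54, 4.07 and 2.05 FPKM at 3 d, 1.23, 1.07, 2.05 and 0.835 at 1 h and 0.405, 0.1995, 0.261, 0.183 and 0.3295 at 6 h, with the 6 h libraries lowest, and rose by 0.93 ± 0.23 (adjusted p = 0.0056). The difference of Fosb from 1 h did not pass, except in the fit without 3 d sham 1. Klf6 rose by 0.54 ± 0.09 without overlap. Fosl2 rose by 0.31 ± 0.10, and not after centring (adjusted p = 0.26). Junb changed by −0.36 ± 0.11 and Ier2 by −0.29 ± 0.07, both lost after centring (adjusted p = 0.64 and 0.92). Fos (0.69 ± 0.27, adjusted p = 0.056) and Egr1 (0.03 ± 0.26, adjusted p = 0.94) did not pass.

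Of 17 tested fasting and PPAR target genes, 2 rose and 7 fell, against 14.1% and 26.4% of all tested genes, with a median of −0.12. With 1 library left out 1 to 2 rose and 4 to 7 fell (2 and 6 without 3 d sham 1). The count of 4 falls was that without 1 h sham 4 or without 3 d sham 3. The coactivator Ppargc1a stood at 17.9, 12.6, 11.1, 10.5 and 12.9 FPKM at 3 d, 3.76, 3.48, 5.05 and 8.12 at 1 h and 14.7, 14.4, 13.1, 8.81 and 9.54 at 6 h, so that 1 h was low and 3 d and 6 h overlapped, and rose by 0.67 ± 0.18 (adjusted p = 0.0082). The fasting-induced transcription factor Creb3l3 averaged 1.43 ± 0.6999 FPKM at 3 d, 2.78 ± 0.974 at 1 h and 4.01 ± 1.06 at 6 h and changed by −0.86 ± 0.20 (adjusted p = 0.0034).

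Of 20 tested sterol synthesis genes, 10 were lower and 0 higher than at 6 h, where 13.2% of all genes were lower. Against 1 h 4 were higher and 0 lower, a share near the 18.6% of all genes that were higher, and against the first hours 1 rose and 4 fell, near the 14.1% and 26.4% of all genes. These contrasts share the 3 d libraries. Mvk, a kinase of the mevalonate pathway, stood at 14.8, 21.7, 20.1, 19.6 and 17.4 FPKM at 3 d, 16.1, 17.8, 21.6 and 21.7 FPKM at 1 h and 28.6, 27.7, 32.3, 30 and 40.2 FPKM at 6 h. Its 6 h libraries lay above all others, and 3 d and 1 h overlapped. Its difference was −0.73 ± 0.12 against 6 h (adjusted p = 0.0026), −0.04 ± 0.13 against 1 h (adjusted p = 0.8) and −0.39 ± 0.11 against the first hours (adjusted p = 0.0096, and 0.43 after centring). Mvd, which acts later in the same pathway, averaged 25.8 ± 3.54 FPKM at 3 d, 27.8 ± 5.51 at 1 h and 43.6 ± 8.11 at 6 h (adjusted p against the first hours = 0.015, and 0.42 after centring). Stard4, which moves cholesterol between membranes, rose by 0.62 ± 0.12 and by 1.05 ± 0.14 against 1 h. Of 14 tested fatty acid synthesis genes 1 fell and 0 rose (0 to 1 in either direction with 1 library left out, and 0 in both without 3 d sham 1). Of 20 tested genes of glycolysis and the hypoxia response 6 fell and 0 rose, close to the 26.4% of all genes that fell. With 1 library left out 3 to 9 fell (9 without 3 d sham 1), and after centring 1 was lower and 1 higher.

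Nuclear-encoded subunits of the mitochondrial respiratory chain and ATP synthase were lower at 3 d. Of 20 tested, 17 fell and 0 rose, against 26.4% and 14.1% of all tested genes, with a median of −0.25. The 20 summed to 5065 to 5217 FPKM at 3 d, 6231 to 6885 at 1 h and 5873 to 6057 at 6 h, without overlap. The changes were small per gene. Uqcrc1, of complex III, stood at 157, 172, 179, 182 and 178 FPKM at 3 d, 261, 234, 278 and 245 at 1 h and 228, 222, 212, 218 and 228 at 6 h and fell by 0.45 ± 0.05 (adjusted p = 6.2e-05). The 6 h libraries lay between the other groups. Ndufb8, of complex I, averaged 212 ± 7.97 FPKM at 3 d, 294 ± 20.6 at 1 h and 248 ± 2.55 at 6 h and fell by 0.35 ± 0.04, and Atp5b, the beta subunit of ATP synthase, averaged 799 ± 16.4, 984 ± 14.5 and 946 ± 43.1 FPKM and fell by 0.27 ± 0.05. Cox4i1, of complex IV, changed by −0.33 ± 0.06, Sdhb, of complex II, by −0.34 ± 0.05 and Ndufv1, of complex I, by −0.25 ± 0.04. Exons of Emc8 on the other strand cover 9.94% of the exonic bases of Cox4i1. Sdha (−0.03 ± 0.05), Ndufs1 (−0.02 ± 0.06) and Cox5b (−0.21 ± 0.10) were the members that did not pass. The count of falls was 12 under median of ratios scaling, 7 under quantile normalization, which ended the call of Atp5b, and 6 after centring on length and GC content, where Cox4i1, Sdhb and Ndufv1 were no longer called (adjusted p = 0.31, 0.29 and 0.85). No subunit was called higher under any of these. At 6 d the 20 genes summed to 5058 to 5476 FPKM, overlapping the 3 d range.

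Ribosome biogenesis genes followed the same direction, mostly as a difference from 1 h. Of 20 tested, 9 fell and 0 rose, against 26.4% and 14.1% of all tested genes, with a median of −0.32, and 6 fell without 3 d sham 1. Against 1 h 13 were lower, where 27.6% of all genes were, and against 6 h 2 were lower, below the 13.2% of all genes. The 20 summed to 240.8 to 348.9 FPKM at 3 d, 392 to 524.4 at 1 h and 327.4 to 399.9 at 6 h, so that 6 h overlapped both other groups. Rrp9, of the small-subunit processome, stood at 7.95, 11.2, 10.1, 9.85 and 10.1 FPKM at 3 d, 21.9, 17.3, 18.2 and 16.8 at 1 h and 13.3, 13.4, 13.5, 13.3 and 12.6 at 6 h, without overlap between any of the groups, and fell by 0.63 ± 0.07 (adjusted p = 6.8e-05). Bop1, of large-subunit maturation, fell by 0.46 ± 0.07, and Nhp2, of the box H/ACA particles, by 0.51 ± 0.11. Pes1, of the same complex as Bop1, fell by 0.28 ± 0.07, and not when small RNA symbols were left out of the scaling. After centring 5 of the 20 were still lower, and 4 when small RNA symbols were left out of the scaling. Of 22 tested cell cycle genes 3 fell and 0 rose, a share below the 26.4% of all genes that fell, and 1 to 8 fell with 1 library left out (1 without 3 d sham 1). The proliferation marker Mki67 did not pass (0.13 ± 0.12, adjusted p = 0.39). Aurka, a mitotic kinase, fell by 0.50 ± 0.11 (adjusted p = 0.0033).

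Among markers of the epithelial lineages, the share that fell was near or below the 26.4% of all genes. Of 11 tested goblet cell markers 3 fell and 0 rose, and the mucin Muc2 did not pass (−0.02 ± 0.09, adjusted p = 0.86). Spdef, the transcription factor of goblet cell maturation, stood at 15.3, 18.9, 18.9, 17.1 and 16.8 FPKM at 3 d, 40.8, 36.3, 35.2 and 25.5 at 1 h and 24.6, 18.1, 22.1, 22.1 and 23.5 at 6 h and fell by 0.63 ± 0.10 (adjusted p = 0.00032). Its 1 h libraries were highest, and 1 of its 6 h libraries lay within the 3 d range. Zg16, a lectin that keeps bacteria off the mucosa, changed by −0.49 ± 0.13, and its call was lost after centring (adjusted p = 0.12). Of 12 tested enteroendocrine markers 4 fell and 1 rose, and with 1 library left out 4 to 5 fell and 0 to 3 rose (4 and 3 without 3 d sham 1). Pyy, peptide YY, stood at 106, 187, 152, 139.6 and 140.5 FPKM at 3 d, 199.5, 210.1, 244 and 235 at 1 h and 219.5, 174, 234, 229 and 214 at 6 h and fell by 0.60 ± 0.11 (adjusted p = 0.00082). Insl5, the insulin-like peptide of colonic L cells, fell by 0.73 ± 0.18 and Gcg, the proglucagon gene of the same cells, by 0.56 ± 0.15. Chromogranin A, Chga, changed by −0.37 ± 0.12 (adjusted p = 0.025, and 0.22 after centring). The 3 d sham 1 library was lowest of the 14 for Pyy and Gcg. Of 14 absorptive colonocyte markers 1 rose and 2 fell (1 to 2 and 1 to 3 with 1 library left out). Of 15 crypt base and stem cell markers 1 fell and 0 rose (0 to 4 fell with 1 library left out, 0 without 3 d sham 1), with Lgr5 at 1.64 ± 0.892 FPKM at 3 d, 1.03 ± 0.284 at 1 h and 2.18 ± 0.549 at 6 h (SD).

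Macrophage and antigen presentation transcripts fell against 1 h. Of 15 tested macrophage markers 7 fell and 1 rose against the first hours, where 26.4% of all tested genes fell and 14.1% rose. Of these markers 9 were lower than at 1 h, where 27.6% of all genes were. At the same time 0 were lower than at 6 h, where 13.2% of all genes were. Without 3 d sham 1, 5 fell and 2 rose, and 5 to 9 fell over all fits with 1 library left out. Their sums were 196 to 339 FPKM at 3 d, 374 to 537 at 1 h and 217 to 309.5 at 6 h, so that the 6 h range lay within that of 3 d. C1qa, of the first complement component, stood at 24.9, 27.3, 33.2, 46.1 and 21.7 FPKM at 3 d, 69.4, 56.5, 57.7 and 58.4 at 1 h and 34.98, 41.1, 34.01, 26.4 and 42.5 at 6 h and changed by −0.62 ± 0.15 (adjusted p = 0.005). Mertk, a receptor for apoptotic cells, averaged 10.1 ± 1.09 FPKM at 3 d, 4.65 ± 1.35 at 1 h and 10.1 ± 2.11 at 6 h and rose by 0.51 ± 0.14. After centring 0 of the 15 were lower and 2 were higher (C1qa −0.33, adjusted p = 0.14).

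Of 8 tested MHC class II presentation genes 5 fell and 0 rose, against 26.4% and 14.1% of all tested genes, with a median of −0.65. From 6 h 0 differed, where 17.7% of all genes did. H2-Ab1, a class II beta chain, stood at 29.1, 38.7, 44.6, 61.8 and 30.6 FPKM at 3 d, 190.4, 66.5, 76.5 and 111 at 1 h and 43.5, 52.9, 34.5, 43.8 and 43.4 at 6 h, the highest value being that of 1 h sham 1, the library with B cell transcripts. It changed by −0.74 ± 0.23 (adjusted p = 0.018, and 0.13 after centring). The count of falls was 2 to 6 with 1 library left out (2 without 3 d sham 1 and 2 without 3 d sham 5), 1 when small RNA symbols were left out of the scaling and 0 after centring. At 6 d H2-Ab1 averaged 126 ± 63.6 FPKM, and 3 d minus 6 d was −1.51 ± 0.31 (adjusted p = 0.004). B2m, the light chain of MHC class I, averaged 302 ± 27.8 FPKM at 3 d, 482 ± 31.9 at 1 h and 346 ± 27.4 at 6 h, fell by 0.43 ± 0.07 (adjusted p = 0.0003), and stood at 784 ± 148 FPKM at 6 d (3 d minus 6 d −1.36 ± 0.10, adjusted p = 1.2e-07). Bst2, an interferon-induced membrane protein, fell by 0.54 ± 0.10 against the first hours (adjusted p = 0.00081), with 3 d minus 6 d of −1.32 ± 0.12. Of 6 tested acute cytokine and chemokine genes 0 passed in either direction, and with 1 library left out 0 to 1 were higher and 0 to 2 lower.

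Of 4 tested plasma cell markers 2 fell and of 5 tested red blood cell markers 3 fell, where 26.4% of all tested genes fell, and 0 rose. Against 6 h, where 13.2% of all genes were lower, 1 plasma cell marker (Igj) and 0 red blood cell markers were lower. The call of Igj against 6 h was lost without 3 d sham 3 or 6 h sham 1, 2 or 3. Igj, the joining chain of secreted antibodies, stood at 8.76, 8.66, 7.74, 24.1 and 19 FPKM at 3 d, 98.1, 88.4, 60.4 and 42.2 at 1 h and 42.2, 44.1, 44.6, 32.4 and 13.7 at 6 h and fell by 1.87 ± 0.33 (adjusted p = 0.00062). The 6 h sham 5 library alone reached into the 3 d range. Mzb1, which helps plasma cells assemble antibody, fell by 1.05 ± 0.22 at low levels (0.715 ± 0.359 FPKM at 3 d, 3.998 ± 2.45 at 1 h and 1.72 ± 0.549 at 6 h), and exons of another gene cover 57.2% of its exonic bases. The adult beta globins Hbb-b1 and Hbb-bt, near-identical copies whose reads the counting may have split, both fell. Hbb-b1 fell by 1.23 ± 0.26 (adjusted p = 0.0022) and Hbb-bt passed with an adjusted p of 0.0048. Igj and Hbb-b1 had no transcript match and took no part in the centring. Red blood cell markers summed to 22.0 to 39.6 FPKM at 3 d, 52.2 to 205 at 1 h and 34.0 to 106 at 6 h, so these levels moved with the comparison, and their part in the other results was not tested.

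Stromal markers gave few calls. Of 14 tested smooth muscle markers 0 rose and 0 fell, and 6 rose when 3 d sham 1 was left out, with 0 to 1 in either direction without any other library. Acta2, the smooth muscle actin, averaged 410.4 ± 149.7 FPKM at 3 d, 426 ± 122 at 1 h and 379.5 ± 118 at 6 h and did not pass (−0.02 ± 0.25, adjusted p = 0.95). Of 13 endothelial markers 1 fell, Plvap (−0.97 ± 0.35, adjusted p = 0.038), at 1.77 FPKM in 3 d sham 1 and 14.97 to 15.9 FPKM in the other 3 d libraries, a call lost without any of 1 h sham 4, 1 h sham 5, 6 h sham 1, 6 h sham 2, 6 h sham 3 or 6 h sham 5 (adjusted p up to 0.063) and after centring (adjusted p = 0.12). Eln, elastin, averaged 9.01 ± 3.65 FPKM at 3 d, 24.7 ± 5.84 at 1 h and 10.7 ± 1.07 at 6 h and fell by 0.87 ± 0.21 (adjusted p = 0.0055). Of 23 tested collagen and matrix genes 5 fell and 0 rose, near the 26.4% of all genes that fell. Without 3 d sham 1, 3 fell and 1 rose, and 1 to 8 fell over all fits with 1 library left out. Col1a1 did not pass (−0.43 ± 0.20, adjusted p = 0.11).

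**Figure D5:**
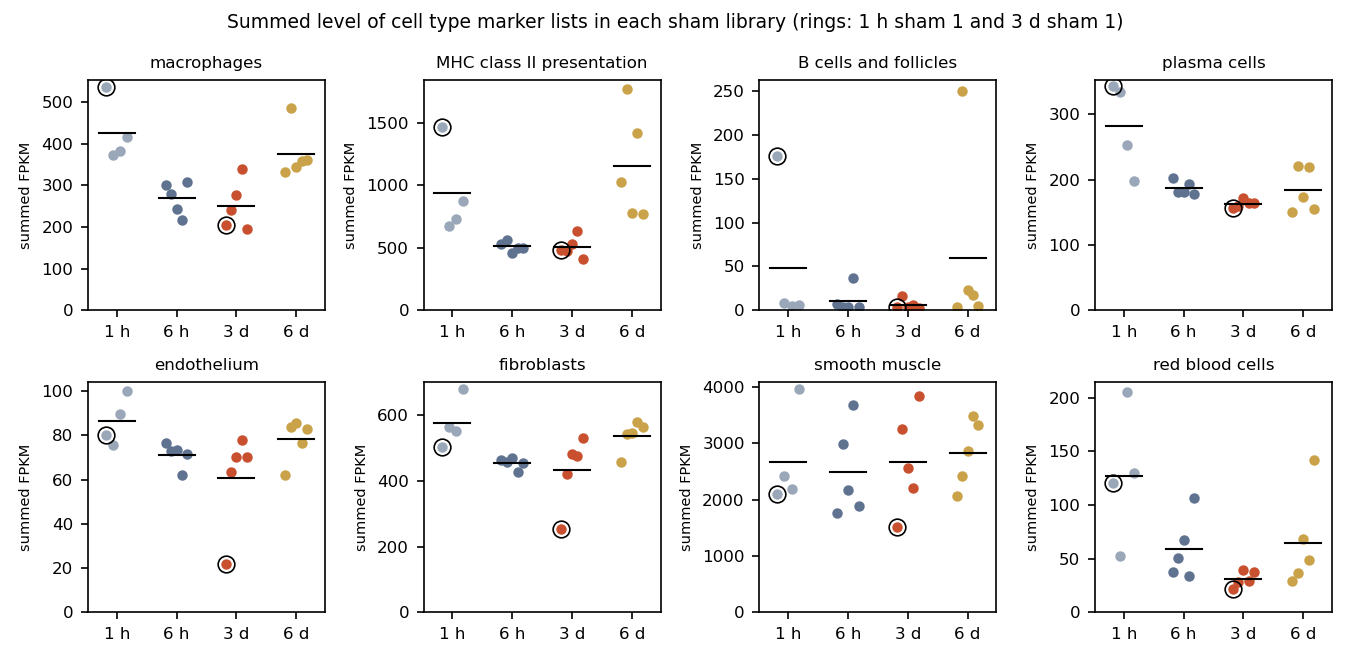
Summed FPKM of 8 marker lists in each sham library at 1 h, 6 h, 3 d and 6 d (points), with group means as bars and rings around 1 h sham 1 and 3 d sham 1. Mean macrophage and red blood cell sums are highest at 1 h, 3 d sham 1 is lowest in endothelium and fibroblasts, and 1 h sham 1 is high in B cell markers.

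The remaining lists are given by their counts, set against 14.1% higher and 26.4% lower over all genes. Counts in parentheses are ranges over the fits with 1 library left out. Of 15 heat shock genes 1 rose (0 to 1) and 1 fell (1 to 2), and of 18 genes of the unfolded protein response 2 rose and 4 fell (3 to 7). Of 22 genes of xenobiotic metabolism 3 rose (0 to 2) and 0 fell (0 to 2), with 1 higher and 2 lower without 3 d sham 1. Of 11 interferon-stimulated genes 1 rose (0 to 2) and 1 fell, and of 12 MHC class I genes 0 rose and 5 fell (3 to 6). Of 13 epithelial defense genes 1 rose (1 to 2) and 4 fell (2 to 5), and of 7 retinoic acid genes 1 rose (0 to 1) and 2 fell (2 to 3). Among marker lists, 1 of 3 squamous, 1 of 5 tuft cell (0 to 1), 1 of 5 enteric glia, 2 of 14 fibroblast (0 to 3) and 2 of 4 adipocyte markers (1 to 2) fell and 0 rose, and without 3 d sham 1, 2 fibroblast markers rose and 1 fell. The adipocyte calls were Lpl and Pparg, the latter named above as a receptor of colonocytes. Adipoq, Lep and Plin1 had a median of 0 FPKM over the 14 libraries and were not tested. Of 5 markers of interstitial cells of Cajal, 8 of enteric neurons, 2 of mast cells and eosinophils, 3 of B cells, 2 of T and NK cells and 1 of mesothelium, 0 passed in either direction. The mesothelium gene tested was Krt19, at a median of 2460 FPKM over the 14 libraries. Msln, Upk3b, Lrrn4 and Wt1 stayed at or below 0.899 FPKM and were not tested, so mesothelium itself was not assessed. Without 3 d sham 1, 1 Cajal cell and 1 neuron marker were higher, and no neutrophil marker reached the filter on low values.

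Set against the later sham tissue, 3 d differed from 6 d in 1097 of 12621 genes (8.69%), with 499 higher (3.95%) and 598 lower (4.74%). Tppp, Per2, Cry1, Cry2, Wee1, Tsc22d3, Sgk1 and Scnn1g were among the genes higher at 3 d than at 6 d, and B2m, H2-T23, Bst2, H2-Ab1 and Duox2 among those lower, each in all 10 fits that left out 1 library of 3 d or 6 d. Tsc22d3 averaged 52.05 ± 3.83 FPKM at 3 d and 30.8 ± 3.17 at 6 d (3 d minus 6 d 0.74 ± 0.11, adjusted p = 0.0002). Of the 15 largest falls, 12 did not pass between 3 d and 6 d, Crybb3 (0.18 ± 0.14, adjusted p = 0.47) and Pparg (−0.09 ± 0.13, adjusted p = 0.75) among them, and of the 15 largest rises 10 did not.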

How the data were processed

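Colon RNA of sham mice was measured by poly(A) RNA-seq. Per the submitters' processing notes, STAR and Cufflinks were used with the mm10 build, and the deposited values are FPKM per gene symbol made by the authors. FPKM are not counts, and the absolute fragment depth per library is unknown. Groups were read from sample titles. From the deposited FPKM, log2(FPKM + 1) was computed, and genes that reached 1 FPKM in 4 or more of the 14 libraries were tested with limma 3.58.1 in R 4.3.3 (1 mean per group, variance trend, Benjamini-Hochberg adjustment), with 3 d minus the equal-weight mean of 1 h and 6 h. The 6 d contrast was fitted likewise on the 19 sham libraries. Tables and figures used Python 3.11.15, pandas 2.3.3 and matplotlib 3.10.9.

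Coordinates, length and GC content come from GENCODE M21 on GRCm38, which matched 95.5% of tested symbols. No source used here states whether reads kept their strand, and overlapping genes cannot be separated. The named genes are the 15 largest rises and 15 largest falls among genes that passed, whose higher side averaged 5 FPKM or more, with no overlap of the 5 and 9 libraries, plus up to 4 called genes per list and a fixed panel; genes outside this rule were chosen after their values were seen. The members and the 45 lists were chosen with earlier results of these data known. The procedure was tested on simulated data of 12462 genes with 200 changed: 98% were recovered at a log2 change of 1 and 80% at 0.5, and 4.81% of calls were false. The simulated noise was drawn apart for each gene, with no shift shared by many genes, such as that with length and GC content. The simulation therefore does not give the share of false calls in these data, where 40.5% of genes were called. Alternatives covered the pseudocount, filter, scaling, weights, other fits, a replicate block and each library left out. Centring on length and GC content in 10 by 10 bins, and leaving out 3 d sham 1 with 1 h sham 1, were added after seeing the data. A few members of the lists, though counted in them, are not reported here.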

Additional observations from a re-analysis of the deposited data

Results flagged for a closer look

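In 16 of 184 groups of printed values, 1 library lay far from the others of its group by Dixon's ratio on log2(FPKM + 1), and chance flags about 1 in 20 groups. The 3 d sham 1 library gave 5 of them. In that library Car2 stood at 1368 FPKM against 850.1 to 939.9 FPKM in the other 3 d libraries, Slc26a2 at 253 FPKM against 58.0 to 81.6, and Slc26a3 at 949.5 FPKM against 498 to 546.5. Its endothelial markers summed to 21.8 FPKM against 63.4 to 78.0, and Plvap stood at 1.77 FPKM against 14.97 to 15.9.

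At 1 h, B cell and follicle markers summed to 175.8 FPKM in sham 1 against 4.56 to 8.71 in the others, and C1qa stood at 69.4 FPKM in the same library against 56.5 to 58.4. Atf3 stood at 11.5 FPKM in 1 h sham 4 against 6.47 to 6.98. In 1 h sham 5, Crybb3 stood at 11.01 FPKM against 6.49 to 6.91 and Muc2 at 308 FPKM against 405 to 416.5.

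At 6 h, B cell and follicle markers summed to 36.4 FPKM in sham 4 against 3.40 to 6.64, and Mertk stood at 6.39 FPKM in that library against 10.6 to 11.6. Mt1 stood at 564.7 FPKM in 6 h sham 1 against 342 to 352, Nr1d1 at 96.5 FPKM in 6 h sham 3 against 71.9 to 77.4, and Igj at 13.7 FPKM in 6 h sham 5 against 32.4 to 44.6. At 6 d, Duox2 stood at 19.9 FPKM in sham 5 against 23.6 to 24.9.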

How the results depend on the processing

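Against the first hours, 5053 genes had changed, and the count was 3790 to 5891 under the alternatives other than leaving out libraries and centring and 3048 (1606 higher, 1442 lower) after centring on length and GC content, where 45.3% of the tested-again calls held. Leaving out 1 library gave 4336 to 5073 genes, 1472 to 2207 higher and 2864 to 3225 lower. The same fits gave 4906 to 6101 against 1 h, 1466 to 2394 against 6 h, 1430 to 3790 for 6 h against 1 h and 748 to 1349 for 3 d against 6 d. Rescaling without small RNA symbols gave 3062 higher and 1315 lower. The count against 6 h was 1308 under median of ratios scaling, 3366 in the fit of all 41 time course libraries and 823 after centring. The count of 6 h against 1 h was 4430 with array weights. Libraries of the same replicate number had correlations of deviations from their group means of −0.202 to 0.177. Libraries of different numbers were not compared, so whether the numbers pair the libraries was not settled. The replicate block gave 4402 genes against the first hours and 1614 for 6 h against 1 h. The cause of these shifts was not tested.

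Of 178 named genes that passed, 2 lost the call with a pseudocount of 0.1, 35 without a filter, 26 under median of ratios scaling, 41 under quantile normalization, 57 without small RNA symbols, 57 with the first hours as 1 group of 9 and, of 176 tested again, 75 after centring. With the first hours as 1 group, genes described above that lost the call included Per1, Per3, Nr1d2, Npas2, Tef, Usp2, Nampt, Klf9, Ppargc1a, Stard4, Mvk, Mvd, Mt2, H2-Ab1, C1qa, Mertk, Eln and Plvap. Tef also lost it in the fits of 19 and of 41 libraries. H2-D1 changed sign to 0.0747 under quantile normalization (adjusted p = 0.231) and 0.0577 after centring (adjusted p = 0.474). The values are FPKM and not counts, so the absolute depth behind low FPKM is unknown and limits every statement on genes near 1 FPKM.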
